A study of Homo sapiens with 4 samples.

Results

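The inflammatory chemokines CXCL1, CXCL2, CXCL3, CXCL5, CXCL6, CXCL8 (IL8 on the array), CCL2, CCL5 and CCL20 and the adhesion molecule ICAM1 were examined in A549 cells after a short exposure to embelin. The 10 genes were taken as every probe on the array that carries one of these symbols, or a RefSeq transcript of one of them, whatever its signal. They are 10 of the 30988 genes and transcripts named on the array, and were read by 16 of its 50238 probes other than control probes. A549 cells are an established human line that was derived from 1 lung adenocarcinoma, and embelin is a benzoquinone with a long alkyl chain, purified from the fruits of Embelia ribes. The 2 control samples were untreated, and the 2 embelin samples received 15 µM embelin. Both groups were collected at 4 h, and all cells had been moved from full serum to medium with 2% serum 12 h before treatment, so low serum is common to both groups. The study made the arrays to find the pathways that change early after embelin. Neither a vehicle in the control samples nor separate cultures for the replicates are named in the labels, so the p-values measure the spread between these samples, which may be technical.

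Chemokines are small secreted proteins that attract leukocytes along a gradient through receptors of the G protein-coupled class. CXCL1, CXCL2, CXCL3, CXCL5, CXCL6 and CXCL8 carry a glutamate-leucine-arginine motif before their first cysteines and attract neutrophils through CXCR2, and for CXCL6 and CXCL8 also through CXCR1. CCL2 attracts monocytes through CCR2, CCL5 attracts T cells and monocytes, and CCL20 attracts dendritic cells and memory T cells through CCR6. ICAM1 is a surface protein of the immunoglobulin superfamily that leukocytes grip with the integrins LFA-1 and Mac-1. Airway and alveolar epithelial cells release these chemokines and display ICAM1 in response to TNF, IL-1 and infection, and NF-kB is the best known activator of these genes.

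The promoters of these genes are shown because most of them share a sequence feature. RefSeq promoter sequence (GRCh38.p14) was at hand for 8 of the 10 genes, CCL2 and CCL5 being the others. Each line gives the bases that end 1 base before the annotated transcript start, 5′ to 3′ on the gene's own strand, and capitals mark the matches to the motifs described next.
CXCL1, chr4:73869293-73869392, plus strand: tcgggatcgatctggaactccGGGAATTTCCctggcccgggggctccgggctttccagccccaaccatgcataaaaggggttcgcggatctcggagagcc
CXCL2, chr4:74099196-74099295, minus strand: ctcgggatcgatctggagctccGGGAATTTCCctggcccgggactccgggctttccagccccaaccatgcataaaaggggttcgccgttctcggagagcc
CXCL3, chr4:74038690-74038789, minus strand: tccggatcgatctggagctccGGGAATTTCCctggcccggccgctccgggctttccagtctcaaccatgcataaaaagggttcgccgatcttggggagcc
CXCL5, chr4:73998678-73998777, minus strand: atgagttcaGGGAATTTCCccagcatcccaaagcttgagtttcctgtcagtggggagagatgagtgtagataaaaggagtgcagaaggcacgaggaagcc
CXCL6, chr4:73836578-73836677, plus strand: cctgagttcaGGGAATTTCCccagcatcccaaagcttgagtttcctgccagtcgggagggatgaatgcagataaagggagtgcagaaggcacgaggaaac
CXCL8, chr4:73740419-73740568, plus strand: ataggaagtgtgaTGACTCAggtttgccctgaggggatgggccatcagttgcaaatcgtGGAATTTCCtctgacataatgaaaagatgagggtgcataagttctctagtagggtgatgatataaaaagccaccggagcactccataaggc
CCL20, chr2:227813742-227813841, plus strand: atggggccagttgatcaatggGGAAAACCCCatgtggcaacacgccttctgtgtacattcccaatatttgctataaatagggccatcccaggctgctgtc
ICAM1, chr19:10270870-10271119, plus strand: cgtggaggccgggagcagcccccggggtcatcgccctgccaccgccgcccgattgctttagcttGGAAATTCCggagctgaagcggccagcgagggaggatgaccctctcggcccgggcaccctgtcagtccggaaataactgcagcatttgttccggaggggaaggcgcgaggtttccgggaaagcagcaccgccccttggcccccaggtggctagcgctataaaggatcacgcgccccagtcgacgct

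The 9 letters GGAATTTCC, or their reverse complement GGAAATTCC, stood in the 250 bases before the start of 7 of the 8 genes and in 145 (0.413%) of the 35116 promoters searched in the same way. A longer form, GGG followed by any 2 bases and then TTTCC, searched on both strands, stood in 6 of the 8 and in 608 (1.73%) of all promoters. In CXCL1, CXCL2, CXCL3, CXCL5 and CXCL6 both forms matched at the same place, and CCL20 held the longer form alone. The matches began between -91 and -77 from the transcript start in the 6 CXC chemokines and at -79 in CCL20, whereas the ICAM1 match began at -186. The matches in CCL20 and ICAM1 were on the other strand. The letters TGANTCA, which bind AP-1 proteins, were found in the CXCL8 promoter at -137 and in no other of the 8, against 2308 (6.57%) of all promoters. The motifs were picked after these promoters had been read, so their share among these genes is a description and not a test. The windows of CXCL1, CXCL2 and CXCL3 are nearly alike, as are those of CXCL5 and CXCL6, so their matches are not independent. A match describes the letters of the window and is not a measurement of binding. The map of these matches also gives the fold changes. Among the CXC chemokines, which hold the 9 letters at nearly the same place, only CXCL8 had a positive fold change. Its probe passed the signal filter described below through the embelin arrays alone, so that sign was partly set by the filter.

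**Figure D1:**
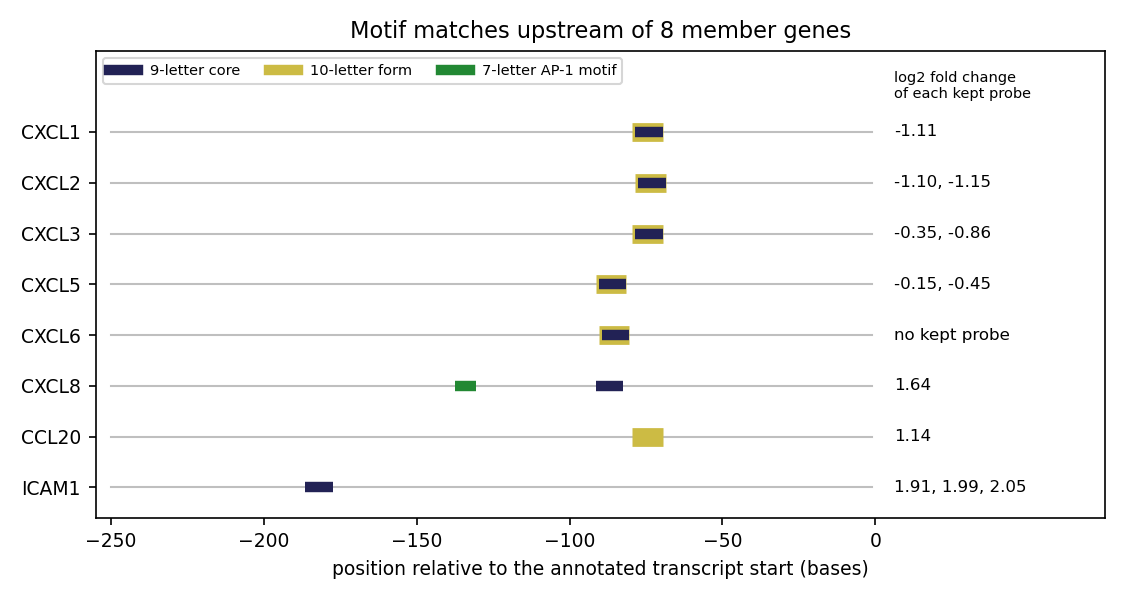
Map of motif matches in the 250 bases before the annotated transcript start (horizontal axis, bases) of the 8 member genes with a promoter sequence. Boxes mark the 9-letter core, the 10-letter form, which overlaps the core in 5 genes and stands alone in CCL20, and the 7-letter AP-1 motif, and the numbers at the right are the log2 fold changes (embelin minus control) of each kept probe of that gene. The core lies between -91 and -69 in the CXC chemokines, whose fold changes run from -1.15 for CXCL2 to 1.64 for CXCL8, and further upstream in ICAM1. The CXCL8 probe was kept through the embelin arrays alone.

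Each array carried 52857 spots and was read in a single colour, and none of the spots examined was saturated. The scanner's intensities were scaled to a common 75th percentile and are given as normalized signals or as log2 of them. A probe counted as well above background by the scanner's own call, and a probe was tested where both arrays of a group, or of both groups, passed, which held for 25975 probes. Fewer probes were well above background on 1 array of each group. The share was 49.89% for control replicate 2 and 49.88% for embelin replicate 1. It was 66.7% for control replicate 1 and 66.3% for embelin replicate 2. The 6 epithelial markers KRT7, KRT8, KRT18, KRT19, EPCAM and CDH1 were well above background on all 4 arrays. Their summed signals were 425000 and 478000 in controls and 379000 and 392000 with embelin. Of 6 alveolar type II markers, ABCA3 was well above background on all 4 arrays. The 6 summed to 5480 and 5250 in controls and 4380 and 4510 with embelin. The leukocyte markers LYZ and MS4A1, the endothelial marker CDH5 and the fibroblast markers DCN and PDGFRB were not well above background on any array. The summed signals of the 8 leukocyte markers were 1800 and 2260 in controls and 2580 and 2220 with embelin, and those of the 4 endothelial markers lay between 58.2 and 109. The 6 fibroblast markers summed to 117 and 302 in controls and 1010 and 234 with embelin. No marker gene was called by limma after adjustment. At an unadjusted p under 0.05 CD14 and NAPSA were lower and COL1A1 and SFTPD higher. The part of these markers in the results was not tested.

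Of the 16 probes, 14 probes of 9 genes were kept, 13 of them well above background on all 4 arrays. The CXCL6 probe and 1 of the 2 CXCL8 probes were not. The 10 genes did not move as a group. ICAM1 rose close to 4-fold at all 3 of its probes (limma, adjusted p under 0.05). CCL20 and CXCL8 were above the controls on both embelin arrays, and CXCL1, CXCL2, CXCL3 and CCL2 were below them at every kept probe. The 3 ICAM1 probes were the only member probes called after adjustment over all tested probes, where 0.901% of tested probes were called higher and 0.273% lower. No member was called lower by limma after adjustment, although 5 member probes were lower and 5 higher at an unadjusted p under 0.05, against 9.71% and 8.26% of tested probes. A change of at least 2-fold with an unadjusted p under 0.05 by limma was met upwards by 5 member probes of ICAM1, CCL20 and CXCL8, against 4.56% of tested probes. It was met downwards by 3 member probes of CXCL1 and CXCL2, against 3.78% of tested probes. The study used these cut-offs with Student's t-test. By that test 4 member probes were higher, without CXCL8, and 3 lower. The CXCL8 probe was kept through the embelin arrays alone, so its place among the higher probes was partly set by the filter, and with the filter on all 4 arrays 4 member probes were higher. Both embelin values lay above both control values at 5 member probes and below them at 7, against 21.4% and 28.3% of tested probes with a value on every array. Since the samples are bulk cultures, fewer cells that express a gene and less RNA per cell cannot be told apart. With 2 arrays a group an exact permutation test of a single probe cannot give a two-sided p below 0.333. The limma tests here draw on the spread of all probes.

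**Figure D2:**
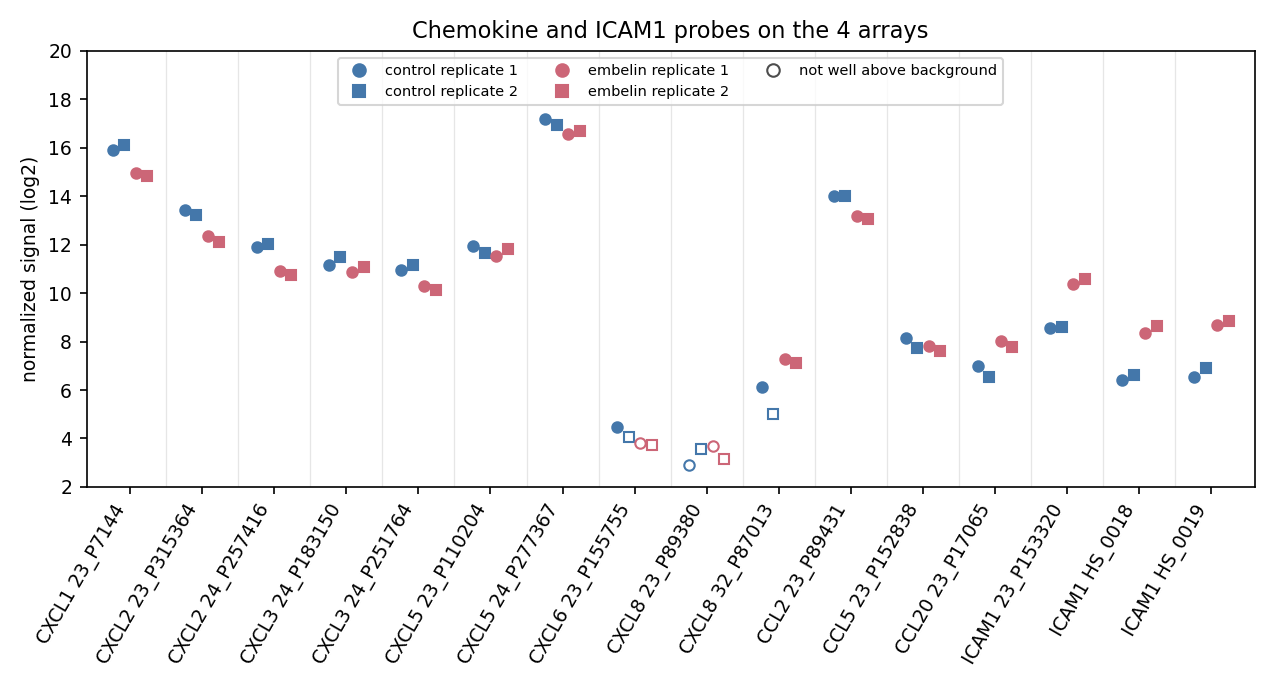
Normalized signal (vertical axis, log2) of the 16 member probes on the 4 arrays, with control replicates in blue and embelin replicates in red; open symbols mark arrays on which the probe was not well above background. The 3 ICAM1 probes, CCL20 and the kept CXCL8 probe have both red symbols above both blue ones, and heights are not comparable between probes.

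ICAM1 was read by 3 probes. At GT_44k_23_P153320 the log2 signal was 8.56 and 8.61 in control replicates 1 and 2 and 10.39 and 10.59 in embelin replicates 1 and 2. Both embelin values stood far from both controls, and the controls differed from each other by little. The log2 fold change was 1.91 ± 0.19 (SE), or 3.75-fold, with a 95% interval of 1.41 to 2.41 and an adjusted p of 0.0429 by limma. The other probes, GT_HS_44k_0018 and GT_HS_44k_0019, lie elsewhere in the transcript and were each printed at 11 spots. GT_HS_44k_0018 read 6.42 and 6.62 in controls and 8.34 and 8.66 with embelin, a log2 fold change of 1.99 ± 0.21 (3.96-fold, limma, adjusted p = 0.0483). GT_HS_44k_0019 read 6.55 and 6.89 in controls and 8.70 and 8.83 with embelin, a log2 fold change of 2.05 ± 0.21 (4.13-fold, limma, adjusted p = 0.0458). The 3 probes thus gave fold changes within 1 SE of each other. GT_HS_44k_0018 and GT_HS_44k_0019 are not independent readings, since the first 40 bases of GT_HS_44k_0018 are the last 40 of GT_HS_44k_0019. The start of that shared stretch, and the start of the probe that does not overlap it, are shown to mark what was read.
ICAM1 probe GT_44k_23_P153320, bases 1 to 30: gaaatactgaaacttgctgcctattgggta
ICAM1 probe GT_HS_44k_0018, bases 1 to 30, also in GT_HS_44k_0019 from base 21: cactatatggactggtaatggttacaggtt

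The repeated spots showed the same separation within the arrays. For GT_HS_44k_0018 the spots used ran from 71.6 to 98.4 and from 81.9 to 117 normalized signal units in the controls, and from 297 to 350 and from 373 to 442 with embelin. For GT_HS_44k_0019 they ran from 80.5 to 108 and from 89.5 to 150 in the controls, and from 311 to 726 and from 411 to 500 with embelin. The highest control spot used, 150, was below the lowest embelin spot used, 297. Spots on 1 array varied with a CV of 4.49% to 33.3%, the widest being GT_HS_44k_0019 in embelin replicate 1, where the mean was 416 and the median 358. The scanner software marked 3 of these spots as outliers, and they were left out. With the median over spots in place of the mean, an alternative added after the data were seen, GT_HS_44k_0019 gave a log2 fold change of 1.95 and an adjusted p of 0.0559. Spots on an array share 1 sample, so their number adds nothing to the 2 samples in each group.

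**Figure D3:**
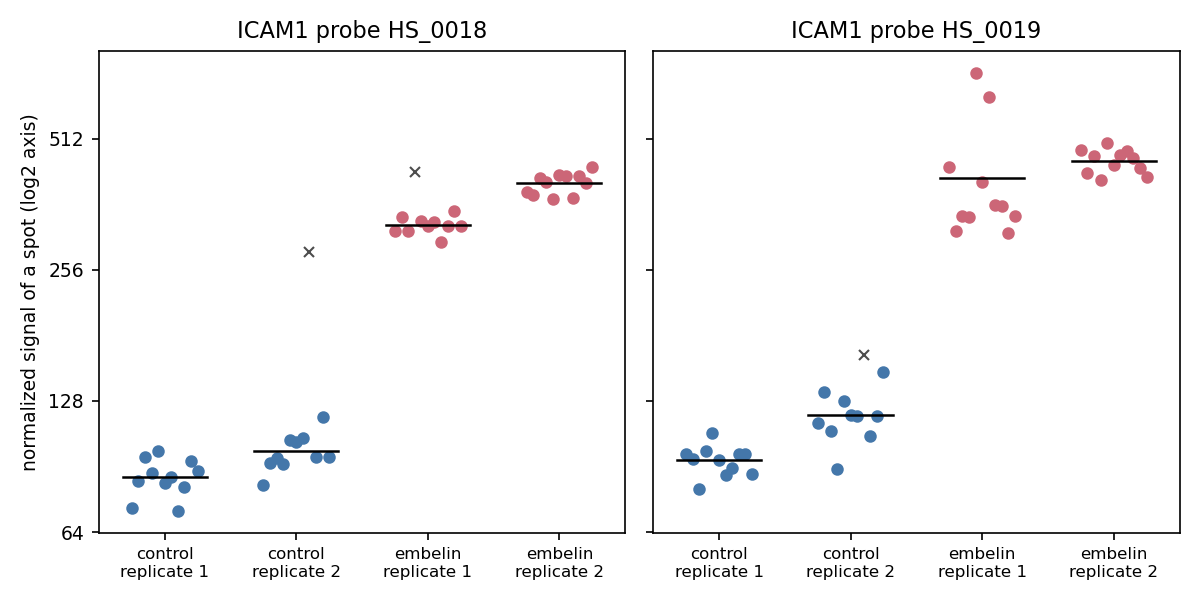
Normalized signal of each spot (vertical axis, log2-spaced) of the ICAM1 probes GT_HS_44k_0018 and GT_HS_44k_0019, 11 spots on each of the 4 arrays; lines are the means used and crosses are the 3 spots left out as outliers. All control spots used lie at or below 150 and all embelin spots used at or above 297.

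The ICAM1 call was close to the threshold. Leaving out 1 array ended it for GT_44k_23_P153320, with adjusted p of 0.101 without control replicate 1, 0.202 without control replicate 2, 0.231 without embelin replicate 1 and 0.126 without embelin replicate 2, while the log2 fold change stayed between 1.81 and 2.01. With the replicate number as a block the adjusted p was 0.0881, and with quantile normalization 0.0548. The control arrays were in slide positions 4 and 1 and the embelin arrays in positions 2 and 3. With position as a covariate the adjusted p was 0.145. Normexp background correction lowered the log2 fold change to 1.75 at GT_44k_23_P153320, 1.42 at GT_HS_44k_0018 and 1.52 at GT_HS_44k_0019. All were still called there (limma, adjusted p = 0.0173, 0.0323 and 0.0277).

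Among the neutrophil-attracting chemokines, CXCL1 had a signal of 60540 and 71840 in controls and of 31560 and 29480 with embelin. On the log2 scale these were 15.89 and 16.13 against 14.95 and 14.85. Both embelin arrays were lower, by 1.11 ± 0.19 on the log2 scale (2.16-fold), which met the 2-fold threshold but not the adjusted one (limma, unadjusted p = 0.00362, adjusted p = 0.0912). CXCL2, a close homologue of CXCL1, showed a like difference at both probes. Probe GT_44k_23_P315364 read 13.44 and 13.22 in controls and 12.35 and 12.11 with embelin, a log2 fold change of -1.10 ± 0.20 (limma, adjusted p = 0.0995). Probe GT_44k_24_P257416 read 11.92 and 12.02 in controls and 10.91 and 10.73 with embelin, a log2 fold change of -1.15 ± 0.18 (limma, adjusted p = 0.0809). The groups did not overlap at either probe, and this adjusted p was the lowest of any member that was lower. CXCL1, both CXCL2 probes and CCL2 were called lower when limma's prior spread followed the signal (eBayes with trend and robust), with adjusted p of 0.00865, 0.0163, 0.0147 and 0.0167. That setting made the most calls over all probes, 741 higher and 552 lower. By the methods' t-test the adjusted p of the same probes were 0.257, 0.282, 0.233 and 0.214.

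CXCL3, another close homologue, gave different sizes at its 2 probes. Probe GT_44k_24_P251764 read 10.96 and 11.16 in controls and 10.28 and 10.11 with embelin, a log2 fold change of -0.86 ± 0.19 (limma, unadjusted p = 0.00951, adjusted p = 0.135). Probe GT_44k_24_P183150 read 11.16 and 11.49 in controls and 10.89 and 11.07 with embelin, a log2 fold change of -0.35 ± 0.21 with a 95% interval of -0.93 to 0.23. Both were lower on the embelin arrays, but the interval of the second includes no change, and neither reached 2-fold. The probe sequences bear on which gene was read. CXCL2 probe GT_44k_24_P257416 is assigned to transcripts of both CXCL2 and CXCL3 in the array's own annotation, and it shares a stretch of 32 bases with CXCL3 probe GT_44k_24_P251764, starting at base 29 of the first and base 1 of the second. The stretch is shown from its first base, with the differing bases in capitals.
CXCL2 probe GT_44k_24_P257416, from base 29: tgtctcaaccccgcatcGcccatggttAag
CXCL3 probe GT_44k_24_P251764, from base 1: tgtctcaaccccgcatcCcccatggttCag

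The differences are G46C and A56C, with positions counted from the 5′ end of the CXCL2 probe and its base given first. The values of these 2 probes can therefore not be fully assigned to 1 gene each. The other CXCL2 and CXCL3 probes, GT_44k_23_P315364 and GT_44k_24_P183150, share no such stretch, and it was these that differed in size, by -1.10 against -0.35.

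CXCL5, another CXCR2 ligand made by epithelium, differed less. Probe GT_44k_24_P277367 read 17.18 and 16.93 in controls and 16.55 and 16.67 with embelin, a log2 fold change of -0.45 ± 0.20 with a 95% interval of -0.97 to 0.08. Probe GT_44k_23_P110204 read 11.96 and 11.67 in controls and 11.52 and 11.81 with embelin, so the groups overlapped, and its log2 fold change was -0.15 ± 0.22. Neither passed a threshold (limma, adjusted p = 0.337 and 0.783). The CXCL6 probe read 4.49 and 4.08 in controls and 3.80 and 3.75 with embelin and was well above background in control replicate 1 alone, so no fold is given.

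CXCL8, the neutrophil chemokine first named interleukin 8, went the other way from CXCL1 and CXCL2. Probe GT_44k_32_P87013 read 6.11 and 5.03 in controls and 7.30 and 7.13 with embelin, or signals of 69.2 and 32.7 against 157 and 140. Both embelin values were above both control values, but the controls lay over 1 log2 unit apart and control replicate 2 was not well above background. The probe thus passed the filter through the embelin arrays alone, and its fold is given as a description. The log2 fold change was 1.64 ± 0.41, with a wide 95% interval of 0.54 to 2.75 and no call after adjustment (limma, adjusted p = 0.157). With normexp background correction the log2 fold change was 0.88, below 2-fold, and that of CCL20 was 0.77. The second CXCL8 probe, GT_44k_23_P89380, read 2.89 and 3.55 in controls and 3.67 and 3.14 with embelin, was not well above background on any array and gives no value for CXCL8. It carries the symbol IL8 and an accession that was not matched to a RefSeq transcript.

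RefSeq places 6 of the chemokines in 1 cluster on chromosome 4, in the order CXCL8, CXCL6, PF4V1, CXCL1, PF4, PPBP, CXCL5, CXCL3 and CXCL2. Read along this order, the log2 fold changes were 1.64 for CXCL8, none for CXCL6, -1.11 for CXCL1, -0.15 and -0.45 for CXCL5, -0.35 and -0.86 for CXCL3 and -1.10 and -1.15 for CXCL2. PF4, the platelet chemokine that lies among them and is no member, had -0.70 (limma, adjusted p = 0.204), and PF4V1 and PPBP were not kept. CXCL8 at one end of the cluster was thus the only measured gene of it with a positive fold change. Its probe was kept through the embelin arrays alone, so that sign was partly set by the filter.

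Among the CC chemokines, CCL2 was lower and CCL20 higher with embelin, and CCL5 did not separate. CCL2 had a signal of 16550 and 16430 in controls and of 9148 and 8439 with embelin. The control arrays nearly coincided, at 14.01 and 14.00 in log2, and both embelin arrays were lower, at 13.16 and 13.04. The log2 fold change was -0.91 ± 0.18 (1.88-fold), just short of 2-fold (limma, unadjusted p = 0.00544, adjusted p = 0.107). CCL20 read 6.98 and 6.54 in controls and 8.04 and 7.76 with embelin. Its groups did not overlap, and the log2 fold change of 1.14 ± 0.25 (2.2-fold, 95% interval 0.47 to 1.81) met the 2-fold threshold but was not called after adjustment (limma, unadjusted p = 0.00836, adjusted p = 0.129). CCL5 read 8.15 and 7.75 in controls and 7.80 and 7.59 with embelin. The groups overlapped, and the log2 fold change of -0.25 ± 0.23 had a 95% interval of -0.87 to 0.37, so that no difference was detectable at this spread (limma, adjusted p = 0.642).

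**Figure D4:**
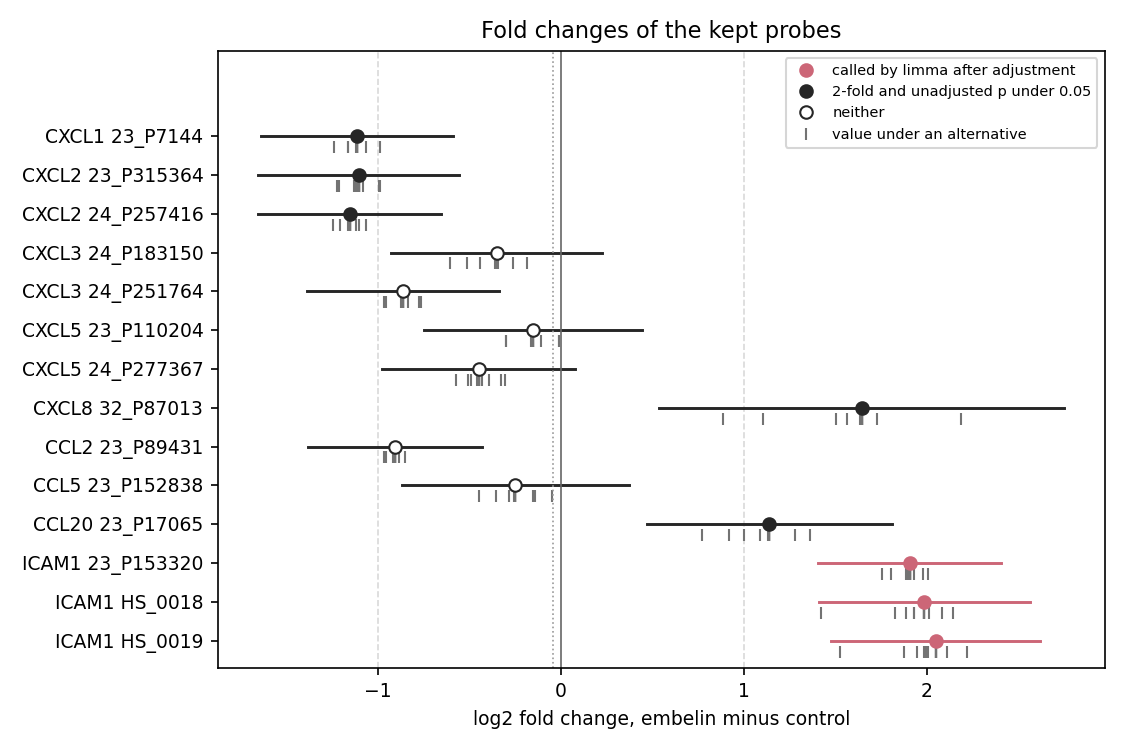
Log2 fold change (horizontal axis, embelin minus control) of the 14 kept member probes, with bars for the 95% interval from limma and small ticks for the value under each alternative setting. Red points were called after adjustment over all tested probes, black points met the 2-fold threshold with an unadjusted p under 0.05, and open points met neither; dashed lines mark 2-fold and the dotted line the median of all tested probes, -0.045. The ICAM1 probes lie near 2, and CXCL1 and CXCL2 lie near -1.1.

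Across the 9 genes with a kept probe, each read at its brightest one, the median log2 fold change was -0.35, beside -0.06 over the 17547 genes and transcripts read in the same way. The direction of every kept member probe was the same in each of the other settings in which it was fitted. Among probes well above background on all 4 arrays, the order by size ran from ICAM1 through CCL20 down to CXCL1 and CXCL2. The intervals of ICAM1 and CCL20 overlapped, as did those of CXCL1, CXCL2, CXCL3 and CCL2, while the intervals of ICAM1 and CCL20 and those of CXCL1, CXCL2 and CCL2 were on opposite sides of no change.

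The genes around these members were read from 6 lists, with 1 probe a gene, namely the brightest kept one. In this reading 0.946% of all genes were called higher and 0.331% lower, and 4.3% and 4.08% met the 2-fold threshold upwards and downwards. At an unadjusted p under 0.05 alone the shares were 8.05% and 10.7%. Of 138 listed genes 73 were kept, of which 4 were called higher and 0 lower by limma, with 25 and 10 at an unadjusted p under 0.05 and 0 in either direction by the methods' t-test after adjustment. Of the 73 genes, 62 were well above background on all 4 arrays. Another 7 were kept through the embelin arrays alone and 4 through the control arrays alone. Apart from CD58, those kept through 1 group were not well above background on at least 1 array of the other group. CD58 had no value in embelin replicate 1, where its signal was left out as an outlier, and was well above background on the other arrays. Of the other chemokine ligands, 5 of 35 were kept, with a median log2 fold change of -0.41. None was called by limma or met the 2-fold threshold, and 2 were lower at an unadjusted p under 0.05. These were CX3CL1, a membrane-bound chemokine that holds monocytes and T cells, at -0.78 ± 0.21, and PF4, both named after their values were seen.

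Of the chemokine receptors and ICAM1-binding integrins, 8 of 27 were kept, with a median log2 fold change of 0.23. CXCR4, the receptor of CXCL12, read 7.27 and 7.39 in controls and 11.21 and 11.11 with embelin, and rose by a log2 fold change of 3.83 ± 0.18 (limma, adjusted p = 0.0248). No tested probe had a lower adjusted p, a value that other tested probes shared. CCR7, the receptor that guides cells to lymph nodes, read 8.92 and 8.86 in controls and 7.72 and 7.82 with embelin, a log2 fold change of -1.12 ± 0.18 that met the 2-fold threshold (limma, adjusted p = 0.0774). CXCR1, CXCR2, CCR2 and CCR6, which bind members, were not among those kept. Of the integrin chains that bind ICAM1, ITGB2 read 8.06 and 8.19 in controls and 7.76 and 8.12 with embelin, with overlapping groups. ITGAM, which pairs with ITGB2 in Mac-1, read 6.44 and 5.81 in controls and 8.38 and 6.56 with embelin, a log2 fold change of 1.35 ± 0.68 (limma, adjusted p = 0.395), and was not well above background in control replicate 2. Both were named after their values were seen. Of other leukocyte adhesion molecules, 8 of 16 were kept. Their median log2 fold change was 0.21, from -0.55 to 0.35, and none was called by limma or met the 2-fold threshold, with 1 lower at an unadjusted p under 0.05. That gene was ICAM3, an ICAM of resting leukocytes, at -0.55 ± 0.19 (limma, adjusted p = 0.249), named after its values were seen. VCAM1 and SELE, which join ICAM1 on inflamed endothelium, were not kept.

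The genes listed as NF-kB subunits, inhibitors and kinases, which also include TRAF1 and BIRC3, were kept in full, 19 of 19. Their median log2 fold change was 0.73. None was called by limma after adjustment, while 9 were higher and 1 lower at an unadjusted p under 0.05, and 6 met the 2-fold threshold upwards and 0 downwards. TRAF1, an adaptor of TNF receptors, read 7.60 and 7.60 in controls and 9.01 and 9.23 with embelin, a log2 fold change of 1.52 ± 0.19 (limma, adjusted p = 0.0558). TNFAIP3, the ubiquitin-editing enzyme A20 that restrains NF-kB, read 8.55 and 7.88 in controls and 9.80 and 9.66 with embelin, a log2 fold change of 1.51 ± 0.29 (limma, adjusted p = 0.104). The subunits RELB and RELA, chosen after their values were seen, had log2 fold changes of 1.46 ± 0.18 and 1.03 ± 0.21. The gene that was lower, also chosen afterwards, was MAP3K14, the kinase NIK of the non-canonical pathway, at -0.91 ± 0.19. NFKBIA, the inhibitor that NF-kB induces fastest and also chosen afterwards, had -0.12 ± 0.19, and its groups overlapped.

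Of the upstream cytokines and receptors, 13 of 21 were kept, with a median log2 fold change of 0.13. None was called by limma after adjustment at its brightest probe, and at an unadjusted p under 0.05 there were 4 higher and 2 lower, the 4 also past 2-fold. IRAK2, a kinase of interleukin 1 and Toll-like receptors, read 4.64 and 5.12 in controls and 6.58 and 7.08 with embelin, a log2 fold change of 1.95 ± 0.29 (limma, adjusted p = 0.0718). Control replicate 2 was not well above background for IRAK2, which was kept through the embelin arrays alone. IL1RAP, the shared chain of the interleukin 1 receptor, read 8.43 and 7.84 in controls and 9.84 and 9.97 with embelin, a log2 fold change of 1.77 ± 0.27 (limma, adjusted p = 0.0742). Of its other kept probes, 1 gave 2.07 (limma, adjusted p = 0.0457), with control replicate 2 not well above background, and another 1.53. The last gave -0.29 ± 1.17, its controls reading 5.34 and 8.71. TNF and IL1B, the cytokines best known to induce the members, were chosen after their values were seen and had log2 fold changes of 1.25 ± 0.18 and 1.02 ± 0.18, neither called (limma, adjusted p = 0.0689 and 0.0946). TNF too was kept through the embelin arrays alone, with control replicate 2 not well above background. Those lower, also chosen afterwards, were TRAF2, an adaptor of TNF receptors, at -0.71 ± 0.18, and the receptor TNFRSF1A, at -0.98 ± 0.36.

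The other secreted or inducible NF-kB targets were all kept, 20 of 20, with a median log2 fold change of 0.53. By limma 3 were called higher and 0 lower, with 10 and 3 at an unadjusted p under 0.05. PTGS2, the inducible cyclooxygenase, read 11.63 and 11.23 in controls and 14.73 and 14.57 with embelin, a log2 fold change of 3.22 ± 0.23 (limma, adjusted p = 0.0279). IL11, a cytokine of the interleukin 6 family, rose by 2.40 ± 0.18 (limma, adjusted p = 0.0293), and CSF2, the growth factor GM-CSF, by 2.35 ± 0.20 (limma, adjusted p = 0.0336), both on the log2 scale. The list did not move one way, as IL6, chosen after its values were seen, read 8.86 and 8.65 in controls and 7.71 and 7.64 with embelin, a log2 fold change of -1.07 ± 0.19 that met the 2-fold threshold (limma, adjusted p = 0.0915). The other genes lower at an unadjusted p under 0.05, chosen afterwards too, were CSF1, well above background on 1 embelin array only, at -0.90 ± 0.33, and LCN2, at -0.62 ± 0.21. The stress gene IER3, also chosen afterwards, was just outside the adjusted threshold, at 1.97 ± 0.22 (limma, adjusted p = 0.0501).

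**Figure D5:**
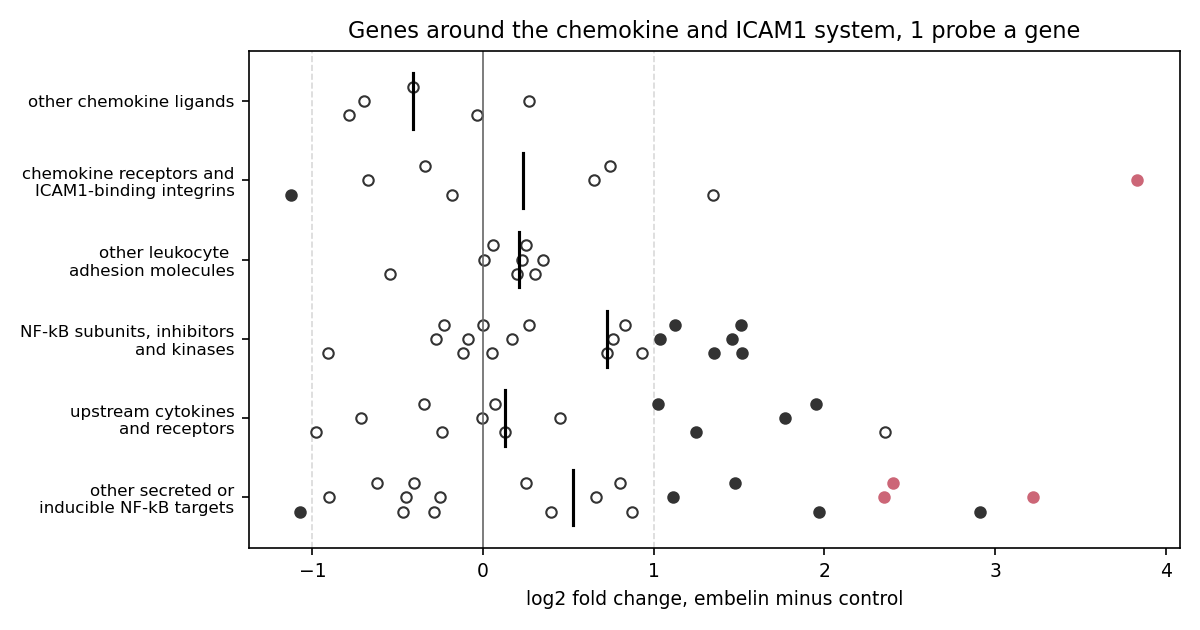
Log2 fold change (horizontal axis, embelin minus control) of the 73 kept genes of 6 lists, 1 probe a gene, with a vertical bar at each list's median. Red points were called by limma after adjustment, black points met the 2-fold threshold with an unadjusted p under 0.05 and open points met neither; dashed lines mark 2-fold. The 4 red points are CXCR4 among the receptors and PTGS2, IL11 and CSF2 among the secreted targets.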

How the data were processed

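RNA of 2 control and 2 embelin samples was hybridized to a custom 8 × 60k Agilent whole-genome array, in Cy3 alone. The authors deposited Agilent Feature Extraction intensities (10.7.3.1 per the file headers), with background subtracted and no normalization between arrays. Their deposited table holds the same intensities averaged over spots, from which it differed by over 0.001 in log2 at 97 to 117 probes per array.

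Here intensities were scaled to a common 75th percentile, as the study's methods name, floored at 1 and put in log2. Outlier spots (47 to 743 per array) were left out and the other spots of a probe averaged. A probe with at least 0.5 of its spots well above background was taken as such, and a probe was kept where this held for both arrays of either group. Each was fitted with limma 3.58.1 in R 4.3.3 (lmFit, eBayes, prior of 2.31 degrees of freedom and SD of 0.234), with Benjamini-Hochberg adjustment over 25975 probes and a call at adjusted p under 0.05. The script was tested on simulated data. Over probes the pooled SD had a median of 0.228 in log2; precision is limited by the few arrays. Probes were named by accession (28595), current symbol (2998), older symbol (1176) or the name in the files (17469), through RefSeq tables. Sequences were searched in Python 3.11.15.

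The members, lists, marker lists and tests were chosen with earlier results of these data known. Named genes were all member probes, then per list the called genes (at most 4, by size) and, with fewer than 2 called, the 2 largest past 2-fold with unadjusted p under 0.05. Genes outside the rule are marked as chosen afterwards. The lists were other chemokine ligands, chemokine receptors and ICAM1-binding integrins, other leukocyte adhesion molecules, NF-kB subunits, inhibitors and kinases, upstream cytokines and receptors, other secreted or inducible NF-kB targets, and the markers of epithelial, alveolar type II, leukocyte, endothelial and fibroblast cells. Alternatives were normexp correction (offset 50), quantile normalization, the deposited table, other filters, eBayes with trend and robust and the methods' t-test. Blocks for replicate number and for background (the share of probes well above it) were also fitted. The others were position on the slide, 1 value a gene, the median over spots and leaving out each array.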

Additional observations from a re-analysis of the deposited data

How the results depend on the processing

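Counts of calls depended on the setting. Higher and lower calls over all probes were 234 and 71, against 540 and 278 with normexp correction, 142 and 30 with quantile normalization, 148 and 33 with the deposited table, 477 and 294 with probes well above background on all 4 arrays, and 741 and 552 with trend and robust. With the brightest probe of each gene there were 109 lower calls. There were 0 calls in either direction, 0 of them members or list genes, with no filter, with the methods' t-test, with a block for background, with position on the slide as a covariate, and without each replicate in turn (0 to 0). Over kept probes the difference between replicates 1 and 2 in controls correlated at 0.214 with that in embelin samples. This rests on 2 pairs of samples, and the labels do not say what a number shares. Whether the numbers pair the samples was not settled. With the replicate number as a block there were 0 calls of all probes, 0 of members and 0 of list genes. The ICAM1 calls of 3 probes became 0 with quantile normalization and with the deposited table, and 1 value called higher where each gene had 1 value, by brightest probe or by mean. Member probes called lower went from 0 to 2 with normexp correction, 1 with the all-array filter and 4 with trend and robust. The 5 member probes higher by 2-fold became 3 with normexp correction and 3 with 1 value a gene. List genes called higher went from 4 to 10 with normexp correction, 11 with the all-array filter, 15 with trend and robust and 7 with the brightest probe before the fit, and list genes called lower from 0 to 1 with the all-array filter and 1 with trend and robust. No fold change of a member reversed, and of these fits over single member probes 186 kept their side of the adjusted threshold, 7 passed it newly and 34 no longer did. The cause of each of these changes was not tested. The methods' t-test at 2-fold and an unadjusted p under 0.05 gave 4 member probes higher and 3 lower. Probes near background, CXCL8 and CXCL6 above all, are limited by signal over background.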
